A study of Homo sapiens with 4 samples.

Results

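The kinetochore and the mitotic spindle were followed through 49 human genes, grouped by function into 15 CENP proteins, 4 subunits of the NDC80 complex, 6 members of the KNL1 and MIS12 complexes, 9 spindle checkpoint genes, 9 Aurora and Polo kinases and their partners, and 6 mitotic kinesins and ASPM. A gene was a member when the transcript identifier of a probe other than a control mapped to 1 of the listed symbols, without regard to its signal. All 49 had a probe, and all 49 were among the 13039 genes that remained after probes with weak signals were left out.

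The kinetochore is the protein assembly that ties each chromosome to the microtubules of the spindle during cell division. CENP proteins build its base on the centromere, the NDC80, MIS12 and KNL1 complexes form the outer layer that grips microtubules, and the spindle checkpoint holds the cell in mitosis until every chromosome is attached. Aurora and Polo kinases correct faulty attachments, and mitotic kinesins move chromosomes and organise microtubules. TIA1 is an RNA-binding protein that prefers U-rich and AU-rich stretches of RNA and is known for its part in splicing, in stress granules and in the control of translation and mRNA decay.

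The study asked which mRNAs are held by cytoplasmic TIA1 in esophageal squamous cell carcinoma (ESCC) cells. RNA was taken from KYSE180 cells, an established ESCC cell line, without any treatment named in the labels. In ribonucleoprotein immunoprecipitation (RIP), an antibody pulls down a protein with its bound RNA, and here 2 single-colour arrays carried RNA precipitated with an anti-TIA1 antibody from cytoplasmic lysate (TIA1 RIP, replicates 1 and 2) and 2 carried total RNA (replicates 1 and 2). The labels do not say whether the replicates were separate cultures or whether the total RNA came from the cytoplasm or from whole cells, so the p-values measure the spread between these arrays, which may be technical, and arrays of RNA precipitated with a control IgG were not analysed here.

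The arrays were not equally bright. The authors deposited scanner intensities after background subtraction, and their 75th percentile ranged from 714 to 1514 on 3 of the arrays but was 69.9 on total RNA replicate 2, where 32.2% of spots were well above background against 45.8% to 48.4% on the other arrays. Across the 13039 genes the TIA1 RIP arrays correlated with Pearson's r = 0.932, and the total RNA arrays with r = 0.733. Ratios are therefore given against each total RNA array separately wherever the arrays differed. All 8 markers of squamous epithelium were detected on all 4 arrays, and of the markers of other cells 1 of 6 for fibroblasts, 2 of 6 for leukocytes and 2 of 4 for endothelium passed the filter. TIA1 mRNA stood at a scaled log2 signal of -0.28 and -1.25 in TIA1 RIP and of -0.48 and -0.45 in total RNA, but each value is the mean of 2 probes that differed. One of them stood at 0.20 and 2.28 in total RNA and the other at -1.17 and -3.19, of which the last was not well above background.

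Signals were scaled by subtracting the 75th percentile of the array on the log2 scale, and a log2 ratio is the difference of the mean scaled signals, TIA1 RIP minus total RNA. The median log2 ratio of all genes was -0.04 on this scale, 2.02 when GAPDH served as the reference and 3.82 when the arrays were scaled to their spike-in spots. Log2 ratios of the members are therefore given relative to the median of all genes, which cancels the scaling of whole arrays. With 2 arrays per group, the number of arrays limits the precision of every value.

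Messages for kinetochore and spindle proteins stood higher in TIA1 RIP than the median gene when total RNA replicate 2 entered the comparison, and did not when total RNA replicate 1 stood alone. On the means of both replicates, 41 of the 49 genes lay above the all-gene median, and the median of the list was 0.88 log2 above it. Against total RNA replicate 2 alone, 42 genes lay above and the list's median was 2.05. Against total RNA replicate 1 alone, 23 genes lay above and the median was -0.11. With that array, 19 members (38.8%) were above the all-gene median for both TIA1 RIP arrays, against 38.3% of all genes, and 23 (46.9%) were below it for both, against 38.3% of all genes. With total RNA replicate 2, 42 members (85.7%) were above it for both TIA1 RIP arrays and 6 (12.2%) below, against 44.5% of all genes in each direction. Of the 49 genes, 23 were not well above background on total RNA replicate 2 and passed the filter only through the TIA1 RIP arrays.

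No member passed the test across all genes. In limma with Benjamini-Hochberg adjustment, 0 of the 49 genes were called higher and 0 lower at an adjusted p under 0.05, as were 0.0% of all genes in each direction. At an unadjusted p under 0.05, 1 member was higher (CENPE) against 1.1% of all genes, and 0 members were lower against 4.02% of all genes. The lowest adjusted p over the members was 0.776. When GAPDH was the reference, the lowest adjusted p was 0.221, so that 0 members were past 2.5-fold with an adjusted p under 0.05 (0.0% of all genes), and 6 members were past it at an unadjusted p under 0.05 (19.5% of all genes), namely CENPA, CENPE, SPC25, PMF1, MAD2L1 and PLK1.

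**Figure D1:**
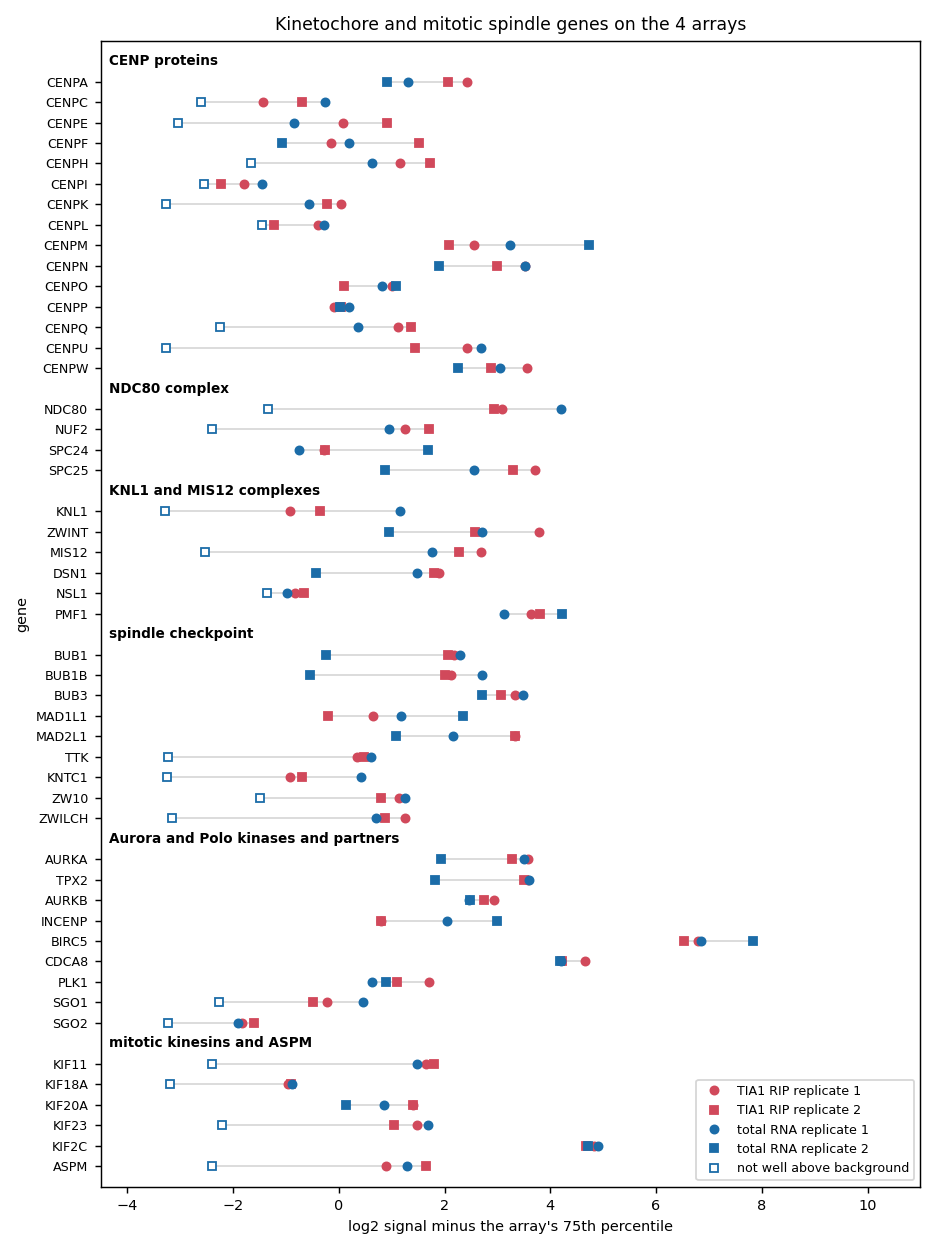
Scaled log2 signal (log2 signal minus the array's 75th percentile, x axis) of each of the 49 genes (y axis, by subgroup) on the 4 arrays, with red for TIA1 RIP, blue for total RNA, circles for replicate 1, squares for replicate 2, and open squares where total RNA replicate 2 was not well above background. In 18 genes both red points lie to the right of both blue points, and in 4 genes both lie to the left. The widest lines reach an open square, but other lines with an open square are short, as in NSL1.

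The 4 arrays sorted the genes into a few patterns. In 18 of 49 members (36.7%) both TIA1 RIP arrays lay above both total RNA arrays, as in 19.4% of all genes, and in 4 members (8.16%) both lay below, as in 21.7% of all genes. Of those 18, 10 were not well above background on total RNA replicate 2 and so passed the filter only through the TIA1 RIP arrays, where they were high. Among the 26 members detected on all 4 arrays, 8 (30.8%) lay above and 4 (15.4%) below, against 15.5% and 27.4% of all genes detected on all 4. Relative to the all-gene median, 17 members (34.7%) lay above it in all 4 pairs of a TIA1 RIP and a total RNA array, against 20.2% of all genes, and the same 4 members as above lay below it in all 4 pairs, against 21.3% of all genes. These 4 were CENPM, MAD1L1, INCENP and BIRC5. A further 16 members (32.7%) had their highest signal on total RNA replicate 1 and their lowest on total RNA replicate 2, so that their direction turned on which total RNA array was used, and 11.1% of all genes did the same. How far the members' shares differ from those of all genes was not tested, since genes are not independent replicates.

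The dim total RNA array measured fewer of these genes. All 49 were detected on both TIA1 RIP arrays and on total RNA replicate 1. On total RNA replicate 2, 23 of them (46.9%) were not well above background, against 26.1% of all genes, so that only 26 (53.1%) were detected on all 4 arrays, against 71.0% of all genes. Those 23 genes passed the filter only through the TIA1 RIP arrays, and total RNA replicate 2 gives only a bound for them, so every ratio of theirs that includes it is an estimate from a signal near background. With signals set to no less than the lowest detected signal of each array, a setting added after the values had been seen, their median relative to all genes against total RNA replicate 2 was 2.25. The median against total RNA replicate 1, where all were detected, was -0.11 in the 23 members and -0.02 in the other 26. The part of the dim array in the results on the means was not tested beyond these values and those without that array.

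**Figure D2:**
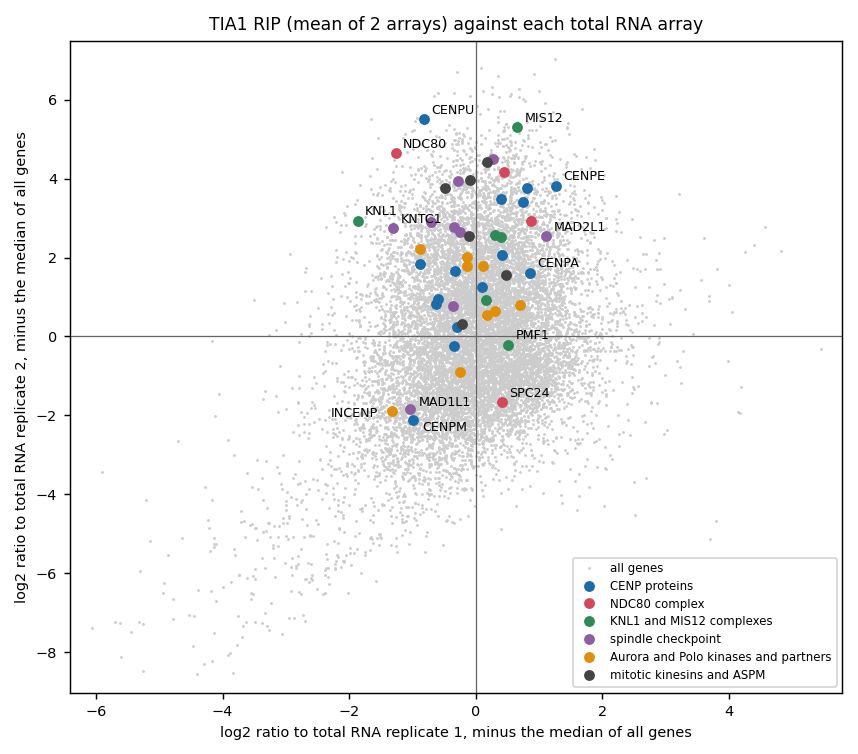
Log2 ratio of the mean of the 2 TIA1 RIP arrays to total RNA replicate 1 (x axis) and to total RNA replicate 2 (y axis), each minus the median of all genes, with all 13039 genes in grey and the 49 members coloured by subgroup. Members spread from -1.87 to 1.26 on the x axis and from -2.12 to 5.51 on the y axis, with INCENP, MAD1L1 and CENPM low on both and KNL1, NDC80 and KNTC1 low on the x axis but high on the y axis.

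The most U-rich 24 bases of the annotated 3′ UTR are shown for 7 of the 21 members that lay on 1 side of the all-gene median in all 4 pairs, picked after their values were seen, since U-rich RNA is what TIA1 is known to bind. Bases are written 5′ to 3′ as RNA, runs of 4 or more U are in capitals, and the windows were read from GRCh37 with the longest coding transcript of each gene in GENCODE. A window is a description of the sequence and not a binding site. MAD2L1 (chr4:120981111-120981134, minus strand), CENPE (chr4:104027126-104027149, minus strand), MIS12 (chr17:5393179-5393202, plus strand) and SPC25 (chr2:169727865-169727888, minus strand) lay above the all-gene median in all 4 pairs:
MAD2L1: uguaauuguuccUUUUaUUUUUUU
CENPE: uugUUUUauuuauuuguauaUUUU
MIS12: uuuaauauuauuauuauugUUUUU
SPC25: ucUUUUUUUcuugUUUUUauuauu
INCENP (chr11:61920563-61920586, plus strand), MAD1L1 (chr7:1855439-1855462, minus strand) and CENPM (chr22:42334784-42334807, minus strand) lay below it in all 4 pairs:
INCENP: auauguuuacuauuugaacUUUUU
MAD1L1: ucaccuugugaaauaaaaucuucu
CENPM: guguuacaucuccauuuaagguuu
The picks do not stand for the whole sets. Over all 17 members above the median in all 4 pairs, the most U-rich window held 13 (PLK1) to 24 U (NSL1), with a median of 17. Over the 4 members below it in all 4 pairs it held 9 (MAD1L1), 11 (CENPM), 14 (INCENP) and 21 U (BIRC5), so the sets overlapped.

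Among the CENP proteins, which form the inner kinetochore and its fibrous outer coat, 12 of 15 lay above the all-gene median on the means, with a subgroup median of 0.60. With the GC trend of each array removed, 7 of 15 lay above and the median was -0.03. The uncorrected median was 1.67 against total RNA replicate 2 and -0.30 against total RNA replicate 1, where 7 of 15 lay above. CENPA, CENPE, CENPH, CENPK and CENPQ were above the median in all 4 pairs, and CENPM was below it in all 4.

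CENPE is a plus-end directed kinesin that carries chromosomes to the spindle equator. Its scaled log2 signal was 0.07 and 0.90 in TIA1 RIP replicates 1 and 2, -0.85 in total RNA replicate 1 and -3.04 in total RNA replicate 2, where it was not well above background. Both TIA1 RIP arrays lay above both total RNA arrays. The log2 ratio was 2.43 with a standard error (SE) of 0.99 (limma unadjusted p = 0.0427, adjusted p = 0.776), and relative to all genes it was 1.26 against total RNA replicate 1 and 3.82 against total RNA replicate 2. Against the lowest signal well above background on total RNA replicate 2, CENPE was at least 2.28-fold and at least 4.05-fold higher in the 2 TIA1 RIP arrays on the scaled signals.

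CENPA, the histone H3 variant that marks centromeres, was detected on all 4 arrays. Its scaled log2 signals of 2.42 and 2.06 in TIA1 RIP lay above those of 1.31 and 0.92 in total RNA. The groups did not overlap, and the log2 ratio of 1.12 (SE 0.78) had an adjusted p of 0.776 in limma. CENPH, CENPK and CENPQ belong to the constitutive network that sits on the centromere throughout the cell cycle. Relative to all genes they stood at 0.75, 0.40 and 0.82 against total RNA replicate 1 and at 3.40, 3.47 and 3.78 against total RNA replicate 2, where none of the 3 was well above background.

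CENPM, another subunit of that network, ran the other way. Its scaled log2 signal was 2.57 and 2.08 in TIA1 RIP and 3.24 and 4.74 in total RNA, so that both TIA1 RIP arrays were below both total RNA arrays. The log2 ratio was -1.66 (SE 0.87, limma adjusted p = 0.776), and the 2 CENPM probes gave -1.63 and -1.70. The gene was detected on every array.

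CENPU, a subunit that helps recruit Polo kinase to the kinetochore, differed widely between the total RNA arrays. Its scaled log2 signal was 2.43 and 1.45 in TIA1 RIP, 2.69 in total RNA replicate 1 and -3.28 in total RNA replicate 2, where it was not well above background. The highest and the lowest of the 4 values were thus both total RNA, and the log2 ratio of 2.23 had an SE of 1.78. CENPC, which links centromeric chromatin to the outer kinetochore, CENPI and CENPL shared that order of the arrays. CENPF, a large coiled-coil protein of the outer kinetochore, differed more between the TIA1 RIP arrays (-0.16 and 1.51) than any other member. CENPN lay at 1.67 relative to all genes against total RNA replicate 2 and at -0.34 against total RNA replicate 1, and its 2 probes gave log2 ratios of means of -0.26 and 1.37. Of the 3 CENPI probes, the 2 listed under a RefSeq transcript gave 0.32 and 0.36 and the other -0.72. CENPO, CENPP and CENPW lay at -0.34, -0.30 and 0.10 relative to all genes against total RNA replicate 1 and at -0.24, 0.25 and 1.26 against total RNA replicate 2.

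The NDC80 complex is the rod-shaped coupler that binds microtubules directly, with NDC80 and NUF2 at the microtubule end and SPC24 and SPC25 at the chromosome end. Its 4 subunits did not move as a unit. Relative to all genes, the subgroup median was 1.72 on the means, 3.54 against total RNA replicate 2 and 0.43 against total RNA replicate 1. Against total RNA replicate 1, SPC25 (0.87), NUF2 (0.44) and SPC24 (0.41) lay above the all-gene median and NDC80 (-1.26) below it. Against total RNA replicate 2, NDC80 (4.64), NUF2 (4.16) and SPC25 (2.92) lay above and SPC24 (-1.66) below. Neither NDC80 nor NUF2 was well above background on that array, so the subgroup median against it rests in part on a signal near background.

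SPC25 was the only subunit of the complex that was both detected on all 4 arrays and higher in TIA1 RIP in every pair. Its scaled log2 signals were 3.71 and 3.29 in TIA1 RIP and 2.56 and 0.87 in total RNA, with a log2 ratio of 1.78 (SE 0.89, limma adjusted p = 0.776). SPC24 stood at -0.28 and -0.26 in TIA1 RIP, between total RNA replicate 1 (-0.75) and total RNA replicate 2 (1.69). For NDC80 the scaled log2 signal was 3.08 and 2.94 in TIA1 RIP, 4.20 in total RNA replicate 1 and -1.34 in total RNA replicate 2, where it was not well above background. The TIA1 RIP arrays were close together (SD 0.10, n = 2), and the total RNA arrays lay on either side of them (SD 3.92, n = 2).

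Of the KNL1 and MIS12 complexes, which bridge the centromere and the NDC80 complex and give checkpoint proteins a platform, all 6 members lay above the all-gene median on the means, with a median of 0.91. The median was 2.54 against total RNA replicate 2 and 0.35 against total RNA replicate 1. KNL1, MIS12 and NSL1 were not well above background on total RNA replicate 2, so the median against it rests in part on signals near background. MIS12, DSN1 and NSL1, which are subunits of the MIS12 complex, were above the median in all 4 pairs, but NSL1 lay at -0.46 once the GC trend of each array was removed.

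MIS12 gave its complex its name. It stood at a scaled log2 signal of 2.69 and 2.28 in TIA1 RIP, 1.75 in total RNA replicate 1 and -2.53 in total RNA replicate 2, where it was not well above background. The log2 ratio was 2.87 (SE 1.38, limma adjusted p = 0.776), but relative to all genes it was 0.65 against total RNA replicate 1 and 5.31 against total RNA replicate 2. Against the lowest detected signal of total RNA replicate 2, MIS12 was at least 13.9-fold higher in TIA1 RIP replicate 1 and at least 10.5-fold higher in TIA1 RIP replicate 2 on the scaled signals. DSN1 was detected on all 4 arrays, with scaled log2 signals of 1.90 and 1.80 in TIA1 RIP and of 1.47 and -0.43 in total RNA, and its groups did not overlap either.

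PMF1, the remaining MIS12 complex subunit, stood at 3.63 and 3.80 in TIA1 RIP and at 3.12 and 4.22 in total RNA, so that the TIA1 RIP arrays lay between the total RNA arrays. KNL1, the scaffold to which the checkpoint kinase BUB1 and its partners are recruited, had the lowest value of all members against total RNA replicate 1. Its scaled log2 signal was -0.92 and -0.36 in TIA1 RIP, 1.16 in total RNA replicate 1 and -3.28 in total RNA replicate 2, where it was not well above background. Relative to all genes it stood at -1.87 against total RNA replicate 1 and at 2.93 against total RNA replicate 2. The KNL1 probe was printed 10 times on each array. The SD of its log2 signal over those spots was 0.04 to 0.05 on the 3 brighter arrays and 0.15 on total RNA replicate 2. Signal on that last array was near background, so the SD there does not show how exactly the total RNA arrays differed. Spots on an array share the same labelled RNA, so they measure the scanner and the printing and not the replicate. ZWINT, the partner of KNL1, gave 3.78 and 2.57 in TIA1 RIP and 2.71 and 0.95 in total RNA.

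**Figure D3:**
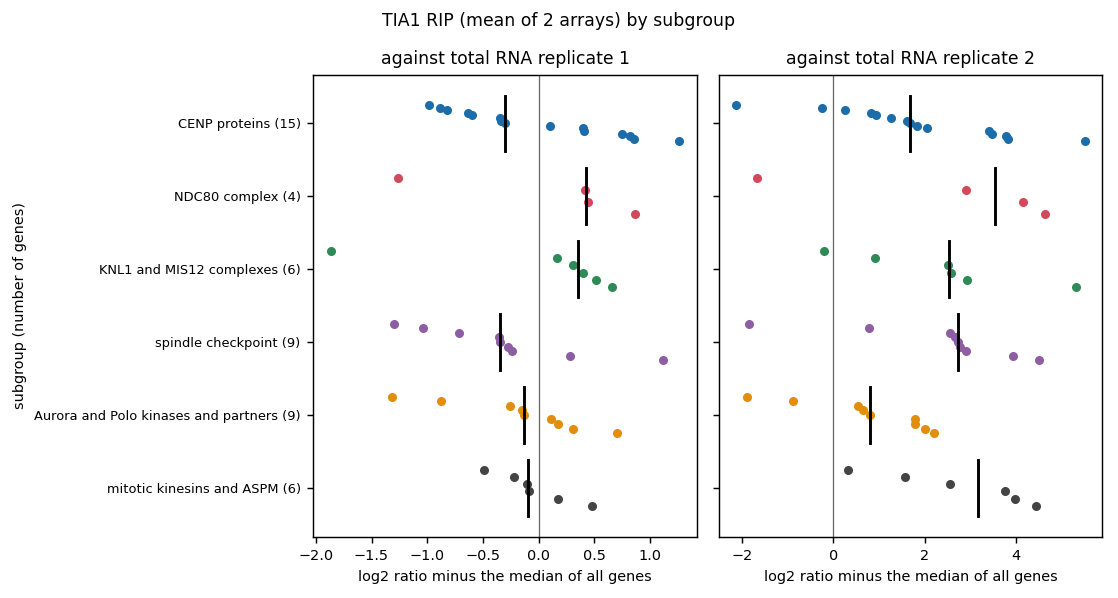
Log2 ratio of the mean of the 2 TIA1 RIP arrays to total RNA replicate 1 (left) and to total RNA replicate 2 (right), minus the median of all genes, for each gene of the 6 subgroups, with a black bar at the subgroup median. The x axes differ in range. The subgroup medians run from -0.35 to 0.43 on the left and from 0.80 to 3.54 on the right.

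The spindle checkpoint delays anaphase until all kinetochores are attached. Of its 9 genes, 8 lay above the all-gene median on the means, with a median of 1.13, and 8 against total RNA replicate 2, with a median of 2.74. TTK, KNTC1, ZW10 and ZWILCH were not well above background on that array, so both medians rest in part on signals near background. Against total RNA replicate 1, 2 of the 9 lay above, MAD2L1 and ZWILCH, and the median was -0.35. BUB1, BUB1B, BUB3, TTK, KNTC1 and ZW10 had their highest signal on total RNA replicate 1 and their lowest on total RNA replicate 2.

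MAD2L1 encodes MAD2, the protein that captures CDC20 to block the anaphase promoting complex. Its scaled log2 signal was 3.34 and 3.33 in TIA1 RIP, 2.15 in total RNA replicate 1 and 1.08 in total RNA replicate 2, with all 4 arrays well above background. The log2 ratio was 1.72 (SE 0.82, limma adjusted p = 0.776). It was the only member over 1 log2 above the all-gene median in all 4 pairs (1 of 49, or 2.04%, against 2.17% of all genes), and also the only one over 1 log2 above it in both pairs with total RNA replicate 1 (2.04% against 5.63% of all genes).

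MAD1L1 encodes MAD1, the kinetochore anchor on which MAD2 is converted to its active form. The partners went opposite ways. The scaled log2 signal of MAD1L1 was 0.64 and -0.20 in TIA1 RIP and 1.18 and 2.35 in total RNA, a log2 ratio of -1.55 (SE 0.86, limma adjusted p = 0.776), and both of its probes were lower in TIA1 RIP (-1.64 and -1.46). All 4 arrays detected it.

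KNTC1, ZW10 and ZWILCH form the RZZ complex that brings dynein and the MAD proteins to unattached kinetochores. KNTC1 stood at -0.93 and -0.69 in TIA1 RIP, 0.42 in total RNA replicate 1 and -3.26 in total RNA replicate 2, where it was not well above background. Relative to all genes against total RNA replicate 1, KNTC1 was at -1.30, ZW10 at -0.35 and ZWILCH at 0.28. They were at 2.74, 2.76 and 4.51 against total RNA replicate 2, where none of the 3 was well above background. BUB1, a kinase that marks centromeres for cohesin protection, was detected on all 4 arrays, with 2.18 and 2.07 in TIA1 RIP against 2.30 and -0.24 in total RNA. BUB1B, the pseudokinase BUBR1, gave 2.13 and 2.01 against 2.71 and -0.54. In TTK, the kinase MPS1 that starts checkpoint signalling, TIA1 RIP lay just below total RNA replicate 1 (0.35 and 0.47 against 0.61). The 2 probes of BUB3, a propeller protein that carries BUB1 and BUBR1, gave log2 ratios of 0.74 and -0.54, and their mean of 0.10 describes neither.

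Across 4 members, namely NDC80, KNL1, KNTC1 and INCENP, TIA1 RIP lay over 1 log2 below the all-gene median in both pairs with total RNA replicate 1 (8.16%, against 8.77% of all genes). Of these, NDC80, KNL1 and KNTC1 lay on the other side with total RNA replicate 2, and 32 members in all (65.3%) lay over 1 log2 above the median in both pairs with total RNA replicate 2, against 28.0% of all genes. Many of the 32, these 3 genes included, were not well above background on that array and passed the filter only through the TIA1 RIP arrays. Against total RNA replicate 2 the median was 3.47 in the 23 members not detected there and 1.03 in the 26 detected there. The share of 65.3% therefore rests in part on signals near background.

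Aurora and Polo kinases and their partners were mostly detected on total RNA replicate 2. On the means, 7 of 9 lay above the all-gene median, with a subgroup median of 0.59, and the subgroup median was 0.80 against total RNA replicate 2 and -0.13 against total RNA replicate 1. Only SGO1 and SGO2 of this subgroup were not well above background on total RNA replicate 2. The chromosomal passenger complex is made of AURKB, INCENP, BIRC5 and CDCA8, and its members split.

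AURKB, the kinase of the complex, stood at 2.94 and 2.75 in TIA1 RIP and at 2.46 and 2.48 in total RNA. CDCA8, the subunit borealin, stood at 4.65 and 4.23 in TIA1 RIP and at 4.20 and 4.19 in total RNA. In both genes the TIA1 RIP arrays lay above the total RNA arrays, which were nearly equal, with log2 ratios of 0.37 (SE 0.77) and 0.25 (SE 0.78). INCENP, the scaffold that binds and activates AURKB, stood at 0.80 on both TIA1 RIP arrays and at 2.05 and 2.99 in total RNA. The log2 ratio was -1.72 (SE 0.81, limma adjusted p = 0.776), and INCENP was the only member over 1 log2 below the all-gene median in all 4 pairs (1 of 49, or 2.04%, against 5.46% of all genes). Each array held 10 spots of its probe, with an SD of 0.04 to 0.07 log2. BIRC5, the subunit survivin, stood at 6.80 and 6.52 in TIA1 RIP and at 6.85 and 7.84 in total RNA, so that the groups did not overlap but replicate 1 of each was nearly equal.

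PLK1, the Polo kinase that acts from mitotic entry to cytokinesis, was detected on all 4 arrays, and its TIA1 RIP values of 1.70 and 1.11 lay above the total RNA values of 0.63 and 0.90. The log2 ratio was 0.64 (SE 0.79, limma adjusted p = 0.847). Relative to all genes PLK1 was at 0.70 against total RNA replicate 1 and at 0.80 against total RNA replicate 2, the closest agreement between the total RNA arrays of any member above the median in all 4 pairs. AURKA, the spindle pole kinase, and TPX2, its activator on microtubules, lay at -0.15 and -0.13 relative to all genes against total RNA replicate 1 and at 1.79 and 2.01 against total RNA replicate 2. The shugoshins protect centromeric cohesin, and of these SGO1 was at -0.88 and SGO2 at 0.11 against total RNA replicate 1, and at 2.21 and 1.80 against total RNA replicate 2. SGO2 counted as above the median in all 4 pairs, but TIA1 RIP replicate 1 against total RNA replicate 1 put it at only 0.0. Once the GC trend of each array was removed, SGO2 lay at -0.48.

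The mitotic kinesins and ASPM, a spindle pole protein, had a median of 1.36 on the means, 3.16 against total RNA replicate 2, where all 6 lay above the all-gene median, and -0.10 against total RNA replicate 1, where 2 did. KIF11, KIF18A, KIF23 and ASPM were not well above background on total RNA replicate 2, so the median against it rests in part on signals near background. KIF11, the kinesin that slides spindle microtubules apart, stood at 1.66 and 1.80 in TIA1 RIP, 1.48 in total RNA replicate 1 and -2.41 in total RNA replicate 2, where it was not well above background. KIF20A, a kinesin of the central spindle needed for cytokinesis, was detected on all arrays, with 1.41 on both TIA1 RIP arrays and 0.85 and 0.14 in total RNA. These 2 genes were the members of the subgroup above the median in all 4 pairs.

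The other members of that subgroup depended on the total RNA array or showed little difference. KIF2C, which takes microtubules apart at the centromere, stood between 4.68 and 4.90 on all 4 arrays. KIF18A, KIF23 and ASPM lay at -0.11, -0.49 and -0.09 relative to all genes against total RNA replicate 1 and at 2.55, 3.77 and 3.97 against total RNA replicate 2, with none of the 3 well above background on the latter.

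In the study, an mRNA counted as bound when its enrichment differed from that of GAPDH by more than 2.5-fold on the arrays and also by sequencing of the precipitated RNA. The sequencing was not analysed here, so only the array part of the criterion was applied. On the means, 46 of 49 members (93.9%) were past 2.5-fold, against 72.4% of all genes, and the other 3 were MAD1L1 (1.42-fold), CENPM (1.32-fold) and INCENP (1.27-fold). Just inside the limit stood SPC24, whose log2 ratio lay 1.32 above that of GAPDH, and BIRC5 (2.60-fold). In all 4 pairs, 11 members (22.4%) were past it, against 26.2% of all genes, and these were CENPA, CENPE, CENPH, CENPQ, NUF2, SPC25, MIS12, PMF1, MAD2L1, PLK1 and KIF20A. In both pairs with total RNA replicate 2 the count was 45 (91.8% against 71.8% of all genes), and in both pairs with total RNA replicate 1 it was 12 (24.5% against 31.1%). The count of 45 includes members that were not well above background on total RNA replicate 2. GAPDH itself stood at a scaled log2 signal of 6.49 and 6.69 in TIA1 RIP and at 7.67 and 9.63 in total RNA, so the reference also differed between the total RNA arrays.

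The members were poor in GC, and GC content went with the ratio to the dim array. Their transcripts had a median GC content of 42.1%, against 49.9% over the 11636 genes with a coding transcript, and 24 of the 49 fell in the lowest of 5 equal bins of all genes by GC content (30.2% to 41.2%). Across the 49 members, Pearson's r between GC content and the log2 ratio was -0.81 against total RNA replicate 2 and -0.15 against total RNA replicate 1. Over all genes it was -0.71 and -0.06. Genes share these arrays and are not independent replicates, so r is a description.

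In that lowest bin, the median over all genes was itself 2.27 against total RNA replicate 2, and the median over the 24 members there was 2.92, with 16 of the 24 above the median of all genes of that bin. Against total RNA replicate 1 those medians were 0.09 and 0.11, with 13 of 24 above. With the GC trend of each array removed (added after the values had been seen), the list's median fell from 0.88 to 0.38 relative to all genes. Under that setting 13 members changed side of the all-gene median, and MAD2L1 went from 1.75 to 0.62. INCENP, MAD1L1 and CENPM were the members with the highest GC content (58.8%, 62.6% and 61.4%), and all 3 were also below the median against total RNA replicate 1. With the GC trend removed they lay at -1.03, -0.65 and -0.83 relative to all genes. The highest bin held MAD1L1 and CENPM. There the median over all genes was itself -1.56 against total RNA replicate 2, and over these 2 members -1.98. Against total RNA replicate 1 those medians were -0.04 and -1.01. The part of GC content in the other results was not tested.

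**Figure D4:**
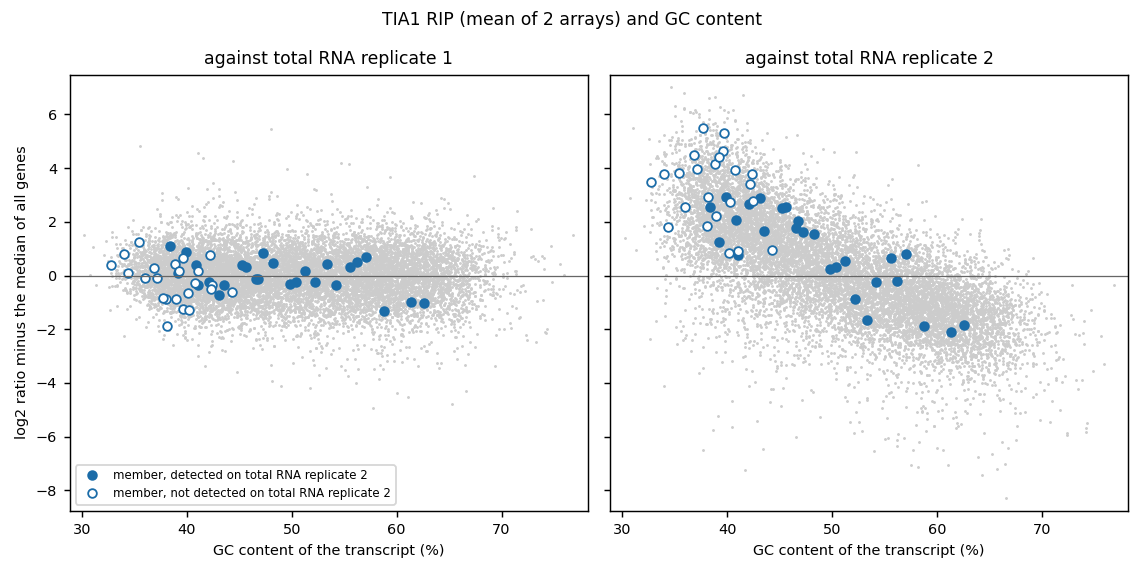
Log2 ratio of the mean of the 2 TIA1 RIP arrays to total RNA replicate 1 (left) and to total RNA replicate 2 (right), minus the median of all genes, against the GC content of the transcript in percent, with genes in grey, members in blue, and open circles for members not well above background on total RNA replicate 2. The members follow no clear slope on the left (r = -0.15) and fall with GC content on the right (r = -0.81), as all genes do (r = -0.71).

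The 3′ UTRs of the members were somewhat richer in U than those of other genes, with a median of 33.5% against 29.3%. Across members, r between the U content and the log2 ratio was 0.64 against total RNA replicate 2 and 0.30 against total RNA replicate 1. Over all genes it was 0.61 and 0.08. The AU-rich pentamer AUUUA, searched on the sense strand, occurred in the 3′ UTR of 36 of 49 members (73.5%) and of 70.4% of all genes. A window of 24 bases with at least 17 U was found in 23 members (46.9%) and in 41.7% of all genes with a 3′ UTR that long. Among these members were MAD2L1, CENPE, MIS12 and SPC25, whose windows are printed above. The threshold equals the lowest count among these 4, so it does not set them apart. Also among the 23 were BIRC5 (21 U), below the median in all 4 pairs, and KNL1 (20 U), the lowest member against total RNA replicate 1. The absence of such a window says nothing about binding. U content and GC content are measured on overlapping sequence and move together.

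Other genes of the same machinery, 79 from 4 lists of further kinetochore assembly factors, the anaphase promoting complex, cohesin and condensin, and other spindle and midzone proteins, were measured beside the members, and 72 of them passed the filter. Their median relative to all genes was 0.77 on the means, 1.71 against total RNA replicate 2 and -0.40 against total RNA replicate 1. In limma 0 of the 72 were higher and 0 lower at an adjusted p under 0.05, and at an unadjusted p under 0.05, 1 was higher (1.39%, against 1.1% of all genes) and 1 lower (1.39%, against 4.02%). Both TIA1 RIP arrays lay above both total RNA arrays in 16 of 72 (22.2%, against 19.4% of all genes) and below both in 20 (27.8%, against 21.7%).

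The lists differed in level. The list of the anaphase promoting complex, the ubiquitin ligase that the spindle checkpoint holds back, had a median of -0.25 over both replicates. The list's median was -0.71 against total RNA replicate 1, where 3 of its 19 genes lay above the all-gene median. It was 0.19 against total RNA replicate 2, where 10 lay above. Besides subunits of the ligase, the genes of this list that passed the filter were CDC20, FZR1, UBE2S, PTTG1 and ESPL1. Over both replicates these lay at -0.71, -1.2, -1.89, -0.67 and -1.92 relative to all genes. Over both replicates, 9 of the list's 19 genes lay above the all-gene median and 10 below. All 9 above it were subunits, and the genes just named were among the 10 below. The list's negative median over both replicates is therefore not the level of the subunits, more of which lay above the all-gene median than below. The 13 kinetochore assembly factors had a median of 1.13 over both replicates, 0.33 against total RNA replicate 1 and 2.27 against total RNA replicate 2. Cohesin and condensin (14 genes) had 0.87, -0.30 and 2.06 in the same order, and the spindle and midzone proteins (26 genes) 1.11, -0.37 and 2.79, so that only the assembly factors lay above the all-gene median in all 3 comparisons.

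Among the 45 of these genes detected on all 4 arrays, the highest log2 ratios were those of MIS18A, which licenses centromeres for new CENPA, ANAPC10, a substrate-binding subunit of the anaphase promoting complex, and RAD21, the cohesin subunit that separase cuts. MIS18A stood at 4.68 and 4.43 in TIA1 RIP and at 2.83 and 2.05 in total RNA (log2 ratio 2.11, SE 0.80, limma unadjusted p = 0.0324, adjusted p = 0.776). ANAPC10 had a log2 ratio of 1.97, and RAD21 had 1.66 but stood at -0.06 relative to all genes against total RNA replicate 1. The lowest were ANAPC11, the catalytic subunit of the ligase (-2.05), the separase gene ESPL1 (-1.96) and UBE2S, an E2 enzyme that extends ubiquitin chains (-1.92). ESPL1 stood at 1.44 and 0.80 in TIA1 RIP and at 2.67 and 3.48 in total RNA (limma unadjusted p = 0.0468, adjusted p = 0.776).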

How the data were processed

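RNA from anti-TIA1 immunoprecipitates and total RNA of KYSE180 cells was hybridised to 4 single-colour Agilent arrays by the authors. They deposited Agilent Feature Extraction 10.7.1.1 output with an intensity for each spot, after background subtraction and not scaled between arrays. Groups and replicate numbers came from the labels.

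Spots marked as non-uniform or as population outliers were left out (299 to 382 of 58717 per array, none saturated). Log2 intensities were reduced by each array's 75th percentile and averaged over the spots of a probe. A probe counted as detected on an array with a share of 0.5 or more of spots well above background, and was kept if both arrays of either group detected it, then the kept probes of a symbol were averaged (20106 probes, 13039 genes). Symbols were found for 34510 of 50599 probes (68.2%) through RefSeq accessions (a later assembly, taken for names alone) and through GENCODE on GRCh37, which is the files' build. The longest coding transcript gave GC content and 3′ UTRs for 11636 of the 13039 genes (89.2%) and all members.

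limma 3.58.1 in R 4.3.3 (lmFit, eBayes, Benjamini-Hochberg over all genes) tested TIA1 RIP against total RNA at 0.05, on this scale and after subtraction of GAPDH. The fit was also run on simulated data with large changes and a smaller spread between arrays than many members had here. That run checks the code and does not show what the fit can detect in these data. Python 3.11.15, pandas 2.3.3 and matplotlib 3.10.9 were used for the rest. The text names all 49 members, GAPDH, TIA1 and, of the other lists, the 3 highest and 3 lowest genes detected on all 4 arrays. Beyond these it names CDC20, FZR1 and PTTG1 to say what the anaphase promoting complex list held. The members and lists were chosen with earlier results of these data known. Alternatives covered background (normexp with offset 50 on the median spot signal, used in place of the mean signal), scaling, filters, probe, transcript, reference gene, fold, block, GC and each array left out.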

Additional observations from a re-analysis of the deposited data

How the results depend on the processing

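Values rest on 2 arrays per group, of which total RNA replicate 2 was dim. Without total RNA replicate 2, 20 members changed side of the all-gene median, against 2 or 3 without any other single array. Leaving out 1 array at a time gave 0 to 1849 genes called higher, 0 to 2051 lower, 0 to 23 members called higher and 0 to 3 lower. The highest of these came without total RNA replicate 1, where the lone total RNA array was assumed to vary like the TIA1 RIP arrays, and 7 genes were called lower without TIA1 RIP replicate 1. Genes past 2.5-fold of GAPDH ranged from 5510 to 10107 and members from 20 to 46, the lowest without total RNA replicate 2. The medians ranged from -0.11 to 2.05 for the 49 genes, from -0.30 to 1.67 for CENP proteins, from 0.43 to 3.54 for the NDC80 complex, from 0.35 to 2.54 for the KNL1 and MIS12 complexes, from -0.35 to 2.74 for the checkpoint, from -0.13 to 0.80 for Aurora and Polo kinases, from -0.10 to 3.16 for the kinesins and ASPM, and from -0.40 to 1.71 for the other lists.

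A replicate block in limma gave 57 genes higher and 299 lower past the adjusted threshold, with 1 member among the former (MIS12, adjusted p = 0.049). The labels name no shared batch. Same-numbered arrays deviated together with r = 0.453, but with 2 pairs this does not settle whether the numbers pair the arrays. With the block and a GC correction, limma called 0 genes (854 higher and 1016 lower at an unadjusted p under 0.05), and the list's median was 0.38, and for CENP proteins it was -0.03.

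Genes past 2.5-fold numbered 4369 of 13039 after quantile normalization and 5932 of 9237 with probes detected on all 4 arrays. They numbered 1653 of 13039 with the median of all genes as the reference. Members past it numbered 23 of the 26 detected on all 4 arrays and 17 of 49 with the median as the reference. A total of 6 members changed side of the median with normexp, and also with a floor at the lowest detected signal, which like the GC correction without a block was chosen after seeing the data. The features over all coding transcripts gave r = -0.83 for GC content against total RNA replicate 2. A slide or scan block was not run because all arrays share 1 slide. The cause of these differences was not tested.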
